A study of Homo sapiens with 7 samples.

Results

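LEF1, TCF7, TCF7L1 and TCF7L2 are the 4 TCF/LEF factors, the proteins that carry Wnt signals onto DNA. They were taken by gene symbol, and all 4 were listed in each of 3 tables of single-cell transcript counts, which shared 21262 listed genes. The cells were cardiac derivatives of the human embryonic stem cell line H1, and each group was 1 library. One library was labelled day 11 of differentiation, with no treatment named and a protocol text that speaks of day 15, and held 5683 cells. The others were from day 15, one with the vehicle DMSO (4015 cells) and one with CHIR (5607 cells), which blocks GSK3, the kinase that marks beta-catenin for breakdown. The labels gave no dose or time of addition for CHIR, and named H1 as the only line and live-cell sorting as the only selection. No difference below could be checked in a second library, and every interval in parentheses is a 95% interval of counting error alone.

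Canonical Wnt signalling works by stabilising beta-catenin, which enters the nucleus but cannot bind DNA by itself. TCF/LEF proteins supply the DNA contact through an HMG box. Without beta-catenin they sit on the same sites with TLE corepressors and hold target genes down. LEF1 and TCF7 are usually described as activators and are themselves Wnt target genes in many tissues. TCF7L1 is best known as a repressor, in pluripotent cells among others, and TCF7L2 can act either way. In the developing heart, Wnt signalling is tied to the atrioventricular canal, the slow-conducting muscle between atria and ventricles, and to the growth of the valve cushions.

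On GRCh38, RefSeq (GRCh38.p14) places LEF1 on chromosome 4 from 108047548 to 108168932, TCF7 on chromosome 5 from 134108218 to 134148210, TCF7L1 on chromosome 2 from 85133392 to 85310387 and TCF7L2 on chromosome 10 from 112950247 to 113167678. The spans are 121, 40, 177 and 217 kb in that order, so all but TCF7 are long genes, which matters for the comparisons with day 11. The libraries count the 3' ends of transcripts, so full-length forms and short forms lacking the beta-catenin binding end were not told apart. RefSeq lists 7 start-site windows of 300 bases for the 4 genes (250 before and 50 after the start). These were searched on both strands for the TCF/LEF core letters CTTTG followed by 2 letters that are each A or T, which makes 4 motifs of 7 bases that do not contain one another. A match was found in 2 of the 7 windows, and in 13.8% of all 35116 windows of that length. The LEF1 window, at an annotated start inside the gene's outer end, is shown because LEF1 had the largest ratio of the 4 genes between the day 15 libraries, and the windows of TCF7 and TCF7L2 because they hold the matches, in capitals.

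LEF1, chr4:108166252-108166551, minus strand: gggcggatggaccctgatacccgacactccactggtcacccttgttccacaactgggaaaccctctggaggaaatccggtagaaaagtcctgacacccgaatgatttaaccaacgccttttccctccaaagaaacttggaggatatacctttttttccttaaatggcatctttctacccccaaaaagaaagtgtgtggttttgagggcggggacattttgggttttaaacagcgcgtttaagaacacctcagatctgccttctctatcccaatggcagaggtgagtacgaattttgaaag
TCF7, chr5:134123368-134123667, plus strand: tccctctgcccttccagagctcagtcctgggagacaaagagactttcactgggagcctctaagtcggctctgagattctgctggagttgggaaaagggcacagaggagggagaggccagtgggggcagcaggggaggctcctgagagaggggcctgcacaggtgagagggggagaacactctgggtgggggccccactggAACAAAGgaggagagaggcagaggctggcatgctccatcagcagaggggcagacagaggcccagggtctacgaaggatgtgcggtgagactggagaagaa
TCF7L2, chr10:113126383-113126682, plus strand: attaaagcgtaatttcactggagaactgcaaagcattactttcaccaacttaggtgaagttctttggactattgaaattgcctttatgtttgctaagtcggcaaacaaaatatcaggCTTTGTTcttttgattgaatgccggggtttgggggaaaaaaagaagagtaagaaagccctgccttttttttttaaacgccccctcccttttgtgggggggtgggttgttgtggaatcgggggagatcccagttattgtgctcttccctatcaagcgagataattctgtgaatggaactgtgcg

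The TCF7 match, read on the opposite strand, begins 50 bases before an annotated start, and the TCF7L2 match 133 bases before an internal start of that gene. The LEF1 window holds none of the 4 motifs. A match is a description of the letters and shows no binding.

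Cells were gated on marker genes, none of which was a TCF/LEF gene. Muscle-like cells, with cardiac troponin, titin, alpha myosin and other sarcomere transcripts, numbered 3705 at day 11 (65.2% of cells), 1862 with DMSO (46.4%) and 1362 with CHIR (24.3%). Mesenchymal-like cells, with collagens, POSTN, LUM and DCN, numbered 1051 (18.5%), 1314 (32.7%) and 3492 (62.3%) in the same order. Cells above both thresholds, here called double, were 273, 98 and 270. Scrublet, a caller of droplets with more than 1 cell, marked 74 of the 98 in DMSO and 68 of the 1862 muscle-like cells there. Ungated cells were 438, 697 and 431. Endoderm-like cells were 151, 23 and 8, and endothelial-like cells 65, 21 and 44. The gates cut continuous scores. Between 2.32% and 5.73% of the cells of a library lay within 0.25 of the muscle cut, and between 13.8% and 17.5% within 0.25 of the mesenchymal cut. The libraries held 65675862 to 81076689 unique molecular identifiers (UMIs, 1 per captured transcript), and 3 to 6 cell barcodes were shared between any pair. LEF1 and TCF7 are also classic markers of lymphoid cells, so lymphoid transcripts were read too. PTPRC, CD3E and MS4A1 had 0 UMIs in every library, and the 8 lymphoid and blood markers summed to between 0.365 and 0.826 CPM (counts per 1000000 UMIs).

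LEF1 was high at day 11, low with DMSO and high with CHIR. In muscle-like cells LEF1 stood at 84.3 CPM at day 11 (81.6 to 87.0), 13.9 with DMSO (12.4 to 15.4) and 84.8 with CHIR (80.9 to 88.9). The day 11 and CHIR intervals overlap almost entirely, and the DMSO interval lies far below both. The likeness of day 11 and CHIR depended on the scaling. With totals of genes of at least 100 kb, LEF1 among them, CHIR muscle was 2.91-fold above day 11 muscle. Such genes took 19.8% of muscle-like UMIs at day 11 and 6.83% with CHIR, and their part in that likeness was not tested. In mesenchymal-like cells LEF1 was at 43.6 CPM at day 11, 11.9 with DMSO and 126 with CHIR (123 to 129). Mesenchymal-like CHIR cells therefore held more LEF1 than CHIR muscle, whereas at day 11 muscle held 1.93 times the mesenchymal level. Genes of at least 100 kb as a group differed the same way at day 11, taking 19.8% of muscle-like and 11.0% of mesenchymal-like UMIs, and their part in that ratio was not tested. Ungated cells followed the mesenchymal pattern, at 38.7, 14.2 and 125 CPM. Double cells lay at 69.9, 16.4 and 92.7, where the CHIR interval overlapped that of CHIR muscle. The 44 endothelial-like CHIR cells had less than CHIR muscle, 45.0 CPM (31.1 to 62.8).

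Over the 14 combinations of library and class with at least 50 cells, LEF1 ran in order of library more than of class. The 4 CHIR classes came first. Among them mesenchymal-like and ungated cells overlapped in their intervals, and so did double and muscle-like cells. Day 11 muscle-like cells came next and overlapped CHIR muscle. The 4 DMSO classes, from 11.9 to 16.4 CPM, overlapped one another and ranked below every day 11 class except endoderm-like cells, though DMSO double and ungated cells overlapped the endothelial-like cells of day 11. The endoderm-like cells had the lowest LEF1 level, 13 UMIs in 151 cells or 5.21 CPM (2.78 to 8.92). The 23 endoderm-like DMSO cells had 0 LEF1 UMIs, where 3 UMIs would be 5.57 CPM, and the 8 such CHIR cells had 15.

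TCF7, which encodes TCF-1, had the same order of day 15 libraries at a much lower count. In muscle-like cells it was at 6.21 CPM at day 11, 3.17 with DMSO (2.51 to 3.95) and 10.8 with CHIR (9.40 to 12.3), from 271, 79 and 221 UMIs. Here the 3 intervals were separate, with CHIR above day 11. In mesenchymal-like cells the levels were 5.68, 3.05 and 12.6 CPM. Within each library the muscle-like and mesenchymal-like intervals of TCF7 overlapped. All 4 CHIR classes ranked above the others for this gene, with the intervals of 65 endothelial-like cells (5 UMIs) and 273 double cells (24 UMIs) of day 11 reaching into theirs.

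TCF7L1, the factor best known for repression, did not follow LEF1 in muscle. It stood at 48.5 CPM in day 11 muscle-like cells (46.5 to 50.6), 11.7 with DMSO (10.4 to 13.1) and 13.1 with CHIR (11.6 to 14.8), so that the day 15 muscle intervals overlapped. In mesenchymal-like cells it was at 34.7, 12.2 and 34.0 CPM, and here CHIR lay with day 11 and not with DMSO in plain CPM. Genes of at least 100 kb, TCF7L1 among them, took 11.0%, 4.72% and 5.76% of the UMIs of these cells in the same order. Their part in that likeness to day 11 was not tested. CHIR muscle held 38.6% of the TCF7L1 level of CHIR mesenchyme, while the DMSO classes differed little, at 95.7%. The highest level of all was in endothelial-like cells at day 11, at 71.7 CPM (55.6 to 91.1) from 67 UMIs. That interval overlapped the one of day 11 double cells (44.5 to 57.8). Endothelial-like cells also had 37.9 CPM with DMSO and 39.7 with CHIR, from 16 and 30 UMIs.

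TCF7L2, which encodes TCF-4, was highest in day 11 muscle, above every other combination of library and class. It stood at 157 CPM in muscle-like cells at day 11 (154 to 161), 36.2 with DMSO (33.9 to 38.7) and 56.4 with CHIR (53.2 to 59.8). In mesenchymal-like cells it was at 73.1, 29.9 and 38.0 CPM. Muscle exceeded mesenchyme in every library, by 2.15 times at day 11, 1.21 times with DMSO and 1.49 times with CHIR. In CHIR cells TCF7L2 was therefore higher in muscle while LEF1 and TCF7L1 were higher in mesenchyme. Genes of at least 100 kb, TCF7L2 among them, also took more of the UMIs in muscle-like than in mesenchymal-like cells. Their shares were 19.8% and 11.0% at day 11, 6.08% and 4.72% with DMSO and 6.83% and 5.76% with CHIR. Their part in the TCF7L2 levels and ratios was not tested. At day 11, endoderm-like cells had 103 CPM of TCF7L2 (91.3 to 117), where LEF1 was at 5.21.

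**Figure D1:**
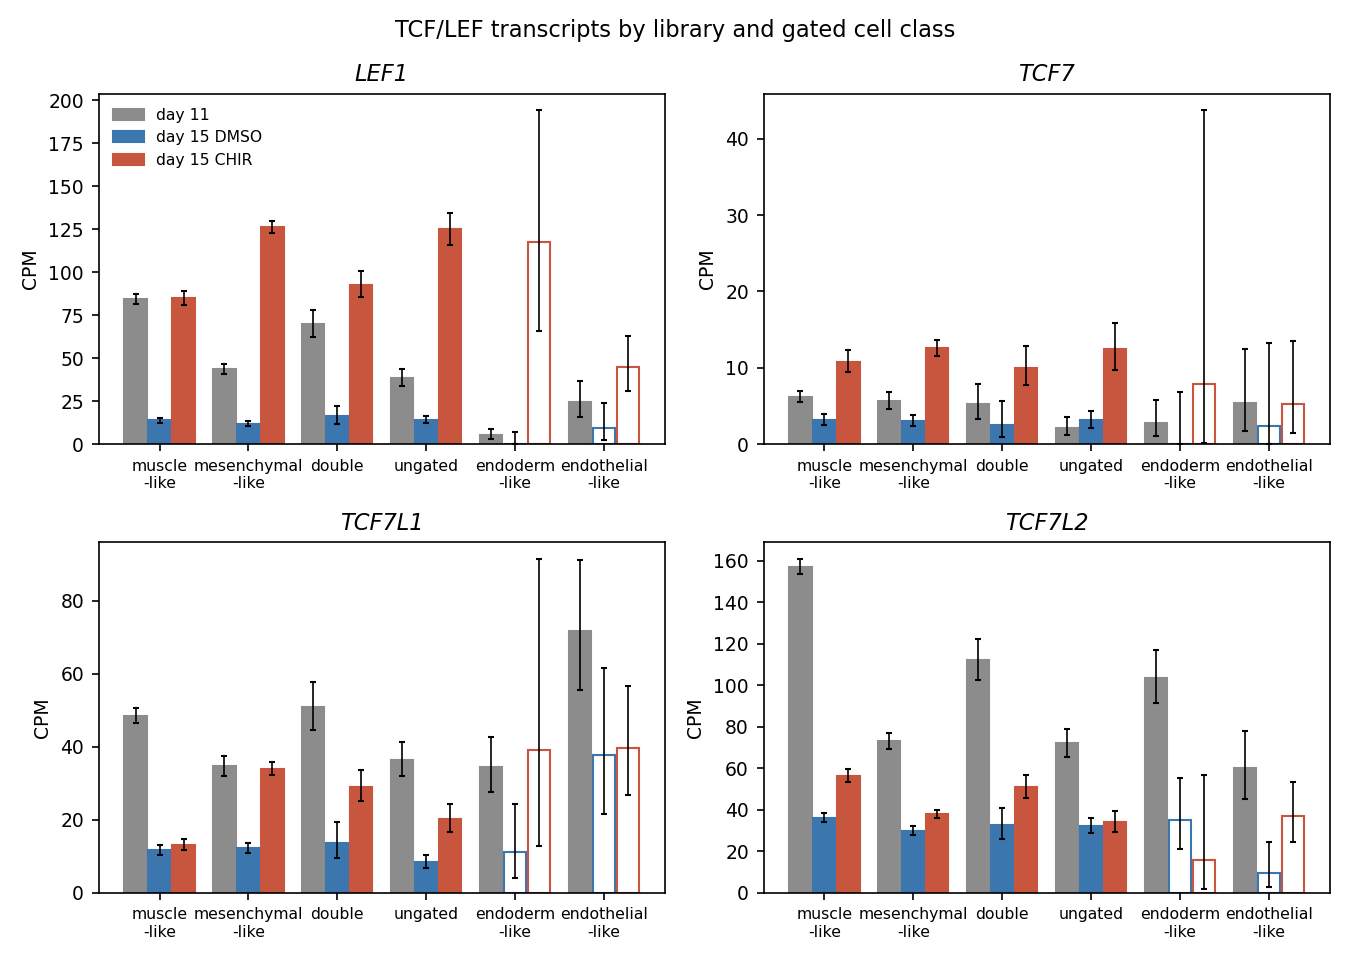
Level of each TCF/LEF gene in CPM (vertical axes, linear, from 0) by gated cell class, with 1 bar per library and 95% Poisson intervals; open bars are classes of fewer than 50 cells. LEF1 bars of CHIR stand at 84.8 to 126 CPM in the 4 large classes and those of DMSO at 11.9 to 16.4, while TCF7L1 in muscle-like cells is at 11.7 and 13.1 CPM in the day 15 libraries.

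The make-up of the TCF/LEF transcripts differed between libraries accordingly. LEF1 gave 28.4% of the UMIs of the 4 genes in day 11 muscle-like cells, 21.4% with DMSO and 51.4% with CHIR. TCF7L2 gave 53.1%, 55.8% and 34.2%. TCF7L1 was 16.4%, 18.0% and 7.94%. The day 11 and DMSO libraries were thus alike in make-up although their summed level differed, at 296 and 64.9 CPM, and CHIR muscle had another make-up at 165 CPM. In mesenchymal-like CHIR cells LEF1 reached 59.9% and TCF7L2 18.0%, against 20.9% and 52.4% with DMSO. Capture can differ between genes, so these shares compare libraries and not the genes with each other.

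**Figure D2:**
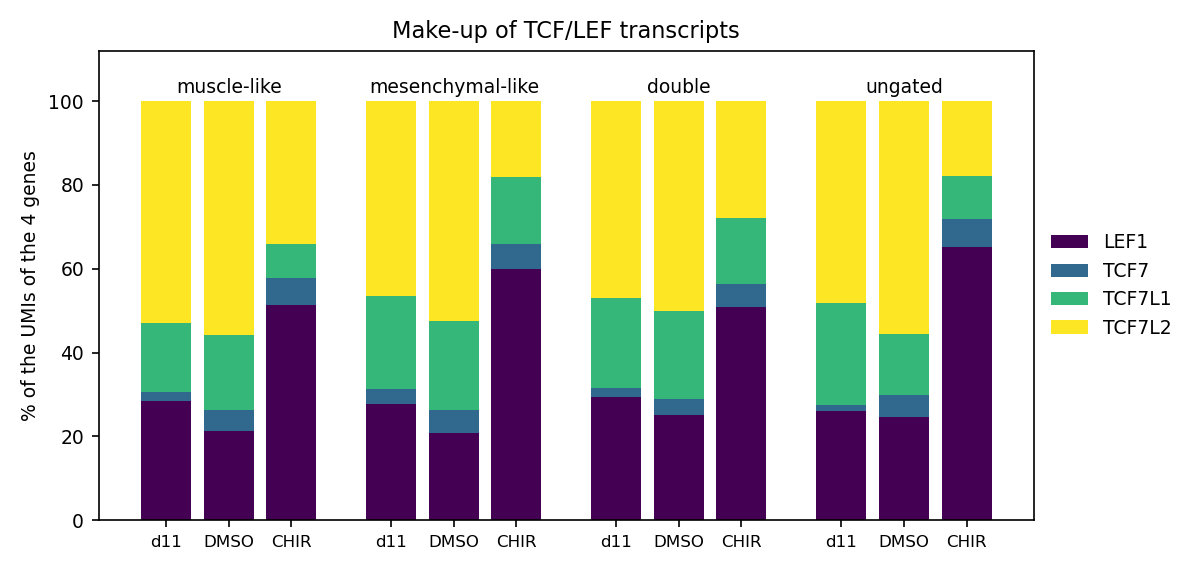
Share of the summed UMIs of LEF1, TCF7, TCF7L1 and TCF7L2 (vertical axis, percent) in 4 cell classes, with 1 stacked bar per library (d11, day 11). LEF1 takes 21.4% of the bar for DMSO muscle-like cells and 51.4% of that for CHIR.

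The same order appeared in the share of cells with at least 1 UMI. LEF1 was detected in 55.2% of muscle-like cells at day 11, 15.8% with DMSO and 64.7% with CHIR. The median depths were 11587, 13052.5 and 14369 UMIs, so cells were also thinned to 5000 UMIs each, leaving out 141, 67 and 20 shallower cells. LEF1 was then found in 32.3%, 7.13% and 33.3% of them. In mesenchymal-like cells the thinned shares were 18.9%, 5.26% and 47.0%. In endoderm-like cells at day 11, the class with the lowest LEF1 level, the share was 8.61% before thinning, at a median of 16359 UMIs, and 1.99% after. Cells with 3 or more LEF1 UMIs were 417 of 3705 at day 11, 4 of 1862 with DMSO and 218 of 1362 with CHIR in muscle. TCF7L2 was found in 51.5%, 16.5% and 23.4% of thinned muscle-like cells and TCF7L1 in 22.4%, 5.52% and 5.74%. In a second draw of the same size, 71.9% of DMSO muscle-like cells had no UMI of any of the 4 genes, against 26.9% at day 11 and 45.0% with CHIR. LEF1 and TCF7L2 occurred together in 8.72% of CHIR muscle-like cells in the same second draw of UMIs, beside the 8.29% given by the product of their shares.

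**Figure D3:**
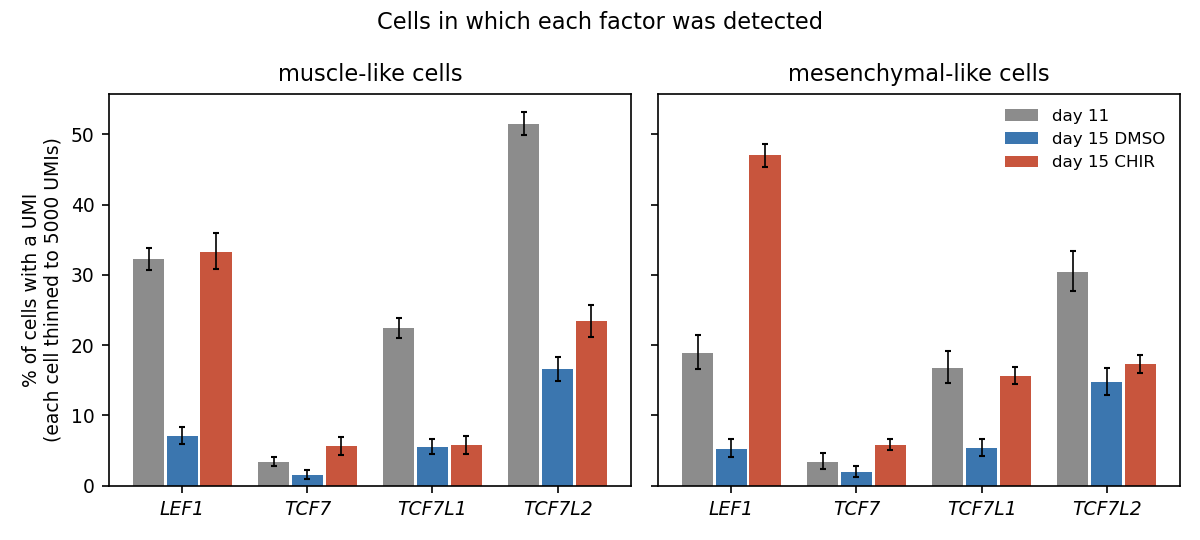
Percent of muscle-like (left) and mesenchymal-like (right) cells with at least 1 UMI of each gene (vertical axis) after each cell was thinned to 5000 UMIs, with exact binomial 95% intervals. LEF1 is found in 7.13% of DMSO and 33.3% of CHIR muscle-like cells.

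CHIR was then set against DMSO at day 15, the treatment contrast of the study, with 1 library on each side. The libraries also differed in ribosomal protein transcripts (33.4% of UMIs with CHIR, 25.4% with DMSO), mitochondrial transcripts (4.80% and 3.85%) and the nuclear RNA MALAT1 (20501 and 25840 CPM), whose part in the ratios was not tested beyond the rescaling given here. In muscle-like cells LEF1 was 6.12-fold higher with CHIR (5.45 to 6.89), TCF7 3.40-fold (2.62 to 4.46) and TCF7L2 1.56-fold (1.43 to 1.70). TCF7L1 had a ratio of 1.12 (0.949 to 1.33). So 3 of the 4 genes were at least 1.5-fold higher and 0 lower, beside 20.4% of all 15840 genes measured that were higher and 26.1% that were lower (46.4% either way). Without mitochondrial and ribosomal protein genes in the totals 4546 genes were higher and 3220 lower, in place of 3224 and 4132, and LEF1 was 6.97-fold higher. With totals of genes of at least 100 kb, a scaling chosen after seeing the data, 2261 were higher and 5077 lower. TCF7L2 fell short of 1.5-fold with the mean of per-cell CPM (1.48) and under those long-gene totals (1.39). TCF7L1 reached 1.43 when double cells were counted as muscle.

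In mesenchymal-like cells LEF1 was 10.6-fold higher with CHIR (9.45 to 11.9) and TCF7 4.14-fold (3.27 to 5.29). TCF7L1 was 2.79-fold higher there (2.47 to 3.16), an interval that does not overlap the one in muscle. TCF7L2 had a ratio of 1.27 (1.17 to 1.38). Again 3 of 4 were past 1.5-fold, beside 33.2% of 16577 genes higher and 23.8% lower (57% either way), or 3855 genes higher and 5497 lower under long-gene totals in place of 5504 and 3953. The gate held unlike cells in the day 15 libraries. Epicardial markers summed to 277 CPM in mesenchymal-like DMSO cells and 95.6 with CHIR, with all 8 detected in both, and their part in these ratios was not tested. Mesenchymal-like cells were 62.3% of the CHIR library and 32.7% of the DMSO library, so ratios over all cells also carry that difference. Over all cells, with no gate, LEF1 was 8.57-fold, TCF7 3.87-fold and TCF7L1 2.37-fold higher and TCF7L2 had a ratio of 1.33. There 25.4% of genes were higher and 26.1% lower (51.5% either way). Without mitochondrial and ribosomal genes TCF7L2 reached 1.52, with 6356 genes higher and 3950 lower in place of 4766 and 4906. Long-gene totals gave 3473 and 6165.

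Collagen and other mesenchymal marker RNA in muscle-like cells stood at 378 CPM with CHIR and 296 with DMSO, which is 9.40% and 7.59% of its level in the mesenchymal-like cells of the same library. These markers also set the mesenchymal gate, so a low share in muscle-like cells was built in. LEF1 in CHIR muscle stood at 67.2% of its mesenchymal level and TCF7 at 85.5%, and carry-over of mesenchymal RNA was not tested. For TCF7L1 the figure was 38.6%. All 8 mesenchymal markers had UMIs in the muscle-like cells of both libraries. The muscle marker sum was alike, at 16632 CPM with CHIR and 15766 with DMSO. The muscle markers also set the muscle gate, so a high sum in both libraries was built in, and nothing is concluded from it.

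AXIN2, the feedback inhibitor read as a marker of canonical Wnt signalling, stood at 10.3 CPM at day 11, 3.13 with DMSO and 69.6 with CHIR in muscle-like cells. AXIN2 was thus 6.73-fold higher in CHIR than in day 11 muscle (6.05 to 7.49), beside a LEF1 ratio of 1.01 in plain CPM. That LEF1 ratio depended on the scaling, at 1.33 without mitochondrial and ribosomal genes, 1.56 with TMM factors and 2.91 with long-gene totals. These scalings change only the totals, so the AXIN2 ratio moves by the same factors and its distance from LEF1 cannot change. They are therefore no test of that distance. LEF1 is a gene of at least 100 kb, and such genes took 19.8% of day 11 muscle-like UMIs and 6.83% with CHIR. Their part in the distance between the AXIN2 and LEF1 ratios was not tested. CTNNB1, which encodes beta-catenin itself, had a ratio of 1.10 between CHIR and DMSO (1.04 to 1.16), at 116 and 105 CPM. Over the 14 combinations Pearson's r of log2(CPM + 1) was 0.79 for LEF1 with AXIN2, 0.84 for LEF1 with TCF7 and 0.73 for TCF7L1 with TCF7L2. It was 0.32 for LEF1 with TCF7L1 and 0.15 for LEF1 with TCF7L2. These values describe points that share libraries and carry no test.

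Muscle-like cells were also split by 4 features, namely AXIN2, TBX2 or TBX3, cycling genes and SHOX2. In CHIR muscle it was at 89.6 CPM in the 834 cells with an AXIN2 UMI and 76.1 in the 528 without, a ratio of 1.18 (1.06 to 1.31). The cells with AXIN2 were deeper, with a median of 15191 against 13398.5 UMIs. At day 11 the same ratio was 1.04 (0.942 to 1.15) and with DMSO 0.784 (0.401 to 1.39). LEF1 was alike in CHIR muscle with TBX2 or TBX3, repressors of chamber identity in the canal, and without either (84.6 and 85.7 CPM, ratio 0.987, 0.877 to 1.11). That ratio was 1.01 with DMSO (0.813 to 1.25) and 1.10 at day 11 (1.03 to 1.18). Cells with SHOX2, a sinus node factor, had the largest LEF1 ratio of the 4 features with DMSO, 1.53 (0.975 to 2.30), from 77 cells at 20.7 CPM against 13.5 in the rest. Only 5 CHIR cells and 3 day 11 cells had SHOX2, with ratios of 1.59 (0.728 to 3.03) and 0.669 (0.0810 to 2.42). Cycling cells, with at least 2 of 6 mitotic genes, had 0.817 times the LEF1 of other muscle at day 11 (0.728 to 0.915), 0.814 with DMSO (0.597 to 1.09) and 0.957 with CHIR (0.852 to 1.07). TCF7L1 in CHIR muscle had a ratio of 1.38 between cells with and without TBX2 or TBX3 (0.987 to 1.98). Cells of 1 library are not replicates, so these values describe the libraries only.

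Day 11 was then compared with day 15, and these libraries differed in the share of their UMIs counted in long genes. Whether intronic reads were counted alike in all libraries could not be read from the labels or notes. Genes of at least 100 kb took 19.8% of the UMIs of day 11 muscle-like cells, 6.08% with DMSO and 6.83% with CHIR. From day 11 to DMSO all 4 factors were lower in muscle, LEF1 6.08-fold (5.44 to 6.81), TCF7L2 4.34-fold (4.05 to 4.66), TCF7L1 4.16-fold (3.68 to 4.72) and TCF7 1.96-fold (1.52 to 2.56). But 52.7% of all 18203 genes were at least 1.5-fold lower and 8.09% higher (60.8% either way), and of 3080 genes of at least 100 kb 91.2% were lower. The median log2 ratio of these long genes was -1.91, with quartiles of -2.79 and -1.24, and the log2 ratios of LEF1, TCF7L1 and TCF7L2 were -2.60, -2.05 and -2.12. All 3 lie between those quartiles, and the part of gene length in these ratios was not tested. With totals of long genes 11878 genes were higher and 2402 lower, and LEF1 was the 1 member still at least 1.5-fold lower, at a ratio of 0.534. TCF7L2 was then at 0.748 and TCF7L1 at 0.780, and TCF7, the shortest gene and not in those totals, turned to 1.65. With TMM factors 4629 genes were higher and 6027 lower in place of 1473 and 9600, and TCF7 was at 0.764.

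CHIR muscle was set against the same day 11 cells, so that both day 11 comparisons share them, as the DMSO cells are shared with the treatment contrast. LEF1 had a ratio of 1.01 (0.950 to 1.07) and TCF7 was 1.73-fold higher (1.44 to 2.08). TCF7L1 was 3.70-fold lower (3.26 to 4.22) and TCF7L2 2.79-fold lower (2.62 to 2.97). So 1 of 4 was higher and 2 were lower, beside 9.28% and 56.2% of 18117 genes (65.5% either way). The median log2 ratio of long genes was -1.83 here, with quartiles of -2.94 and -0.998. LEF1, at 0.01, lay above the upper quartile, TCF7L1 (-1.89) lay near the median, and TCF7L2 (-1.48) within the quartiles. With totals of long genes 10111 genes were higher and 3598 lower. LEF1 was then 2.91-fold higher, and TCF7L2 and TCF7L1 stood at 1.04 and 0.782. TCF7, too short to be in those totals, was 5.01-fold higher. With TMM factors LEF1 was 1.56-fold higher, and 4502 genes were higher and 6690 lower in place of 1681 and 10178. Without mitochondrial and ribosomal genes, 3170 were higher and 7809 lower.

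**Figure D4:**
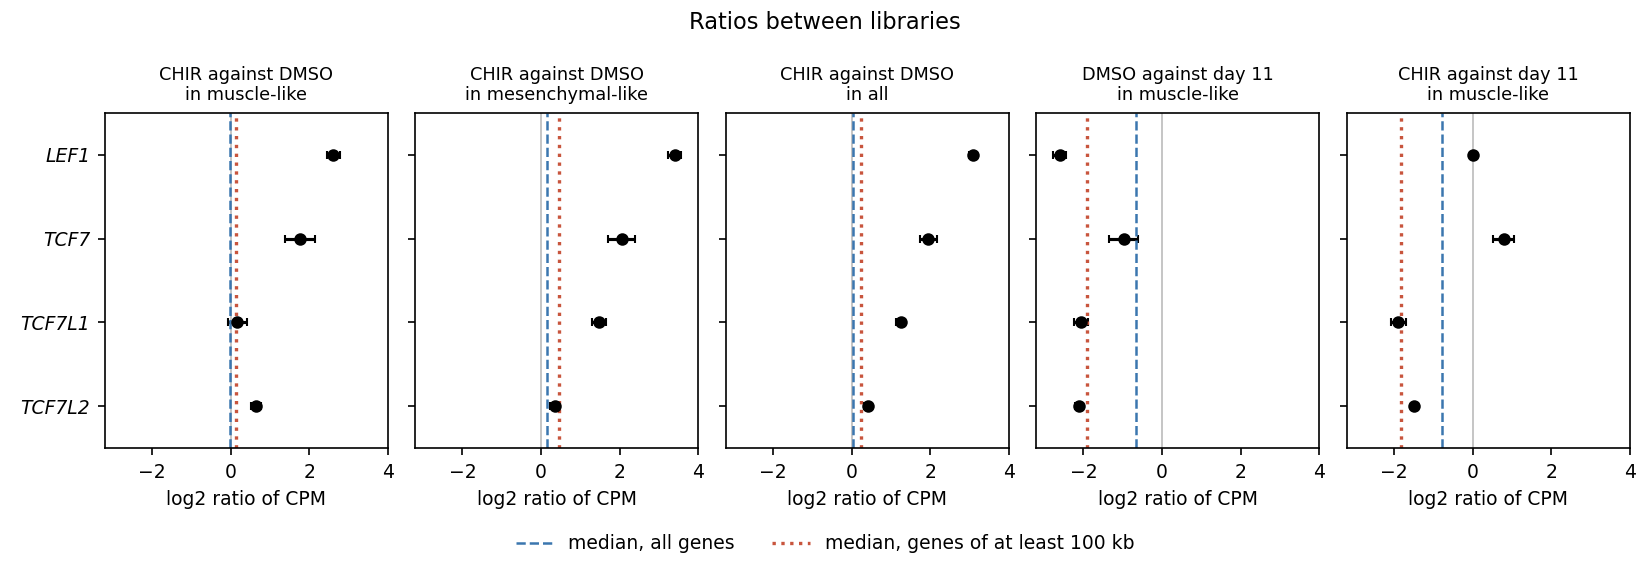
Log2 ratio of CPM (horizontal axes) of each TCF/LEF gene in 5 comparisons, with 95% counting intervals, the median of all genes (dashed) and the median of genes of at least 100 kb (dotted). In the CHIR against DMSO panels LEF1 and TCF7 lie to the right of both medians, while TCF7L1 (-2.05) and TCF7L2 (-2.12) lie near the long-gene median of -1.91 in DMSO against day 11.

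Genes that act with or on the TCF/LEF factors were read in CHIR against DMSO muscle, where the median log2 ratio was -0.02 over all genes and 0.14 over long genes. Each count is to be read beside the 20.4% of all genes that were higher and the 26.1% that were lower. With TMM factors 3580 of the 15840 genes were higher and 3837 lower, and the counts marked TMM are to be read beside those. Of 12 partners that help beta-catenin activate transcription, 4 were at least 1.5-fold higher and 0 lower, with a median log2 ratio of 0.53 (6 higher with TMM factors). TBL1X, an exchange factor of corepressor complexes, was 2.39-fold higher (2.12 to 2.69), the acetyltransferase gene CREBBP 2.03-fold and CDC73, of the PAF elongation complex, 1.61-fold. Of 16 repressors of TCF/LEF activity 15 were measured, with 3 higher and 3 lower (2 lower with TMM factors) and a median of 0.17, counts near those shares. The corepressor TLE3 was 3.68-fold higher (2.86 to 4.77), at 12.4 against 3.37 CPM. The kinase NLK, which phosphorylates TCF/LEF proteins, was 2.35-fold higher, and HBP1, an HMG-box repressor, 2.95-fold lower (2.54 to 3.45).

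The same shares over all genes, 20.4% higher and 26.1% lower, apply to the next lists, and counts marked TMM again have the TMM background given above. Of 10 measured genes of the beta-catenin destruction complex, 6 were higher and 0 lower. Their median was 0.72. The scaffold gene APC was 2.16-fold higher (1.89 to 2.48), and GSK3A and GSK3B, the targets of CHIR, were 2.10-fold and 1.66-fold higher. Of 18 receptors and receptor-near genes 15 were measured, with 2 higher, 7 lower (6 with TMM factors) and a median of -0.16. The Wnt receptor FZD6 was 2.22-fold higher (1.91 to 2.57). FZD7, another Frizzled, was 3.35-fold lower (2.70 to 4.20), and the R-spondin receptor LGR4 3.41-fold lower (2.89 to 4.04). The list of Wnt targets had 12 measured genes, 7 at least 1.5-fold higher with CHIR and 2 lower, and its median was 1.37. The antagonist NKD1 was 35.2-fold higher (21.1 to 63.4), from 434 and 15 UMIs, and AXIN2 22.3-fold (17.7 to 28.3). The secreted inhibitor DKK1 was 5.67-fold lower (4.71 to 6.88). Of 9 measured SOX factors, which share the HMG box and can compete with TCF/LEF proteins, 2 were higher and 1 lower. The share higher is near that over all genes, and the median over these 9 was 0.34. SOX11 was 2.95-fold higher (2.77 to 3.14), at 172 against 58.4 CPM.

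The genes whose levels ran most like each factor over the 14 combinations differed between members, over points that share libraries and their depth and long-gene share. For LEF1 they were TMEM132C (r = 0.92), CCDC88A (0.90), LIX1 (0.89), GNL3L (0.88) and HNRNPD (0.87), of 9627 genes. LIX1 stood at 90.7 CPM in day 11 muscle-like cells, 62.8 with DMSO and 174 with CHIR. For TCF7 they were EIF2S3 (0.94), FTSJ3 (0.94), EIF3A (0.93), PSMB4 (0.92) and CNTNAP3B (0.91). For TCF7L1 they were ZNF362 (0.96), PHACTR2 (0.95), WASHC4 (0.95), KANSL2 (0.95) and GRIN2A (0.95). PHACTR2, picked for its likeness to TCF7L1, was also highest in endothelial-like cells at day 11, at 209 CPM. For TCF7L2 they were VWA8, SNX13, SPPL3, AF117829.1 and AC118549.1, with r between 0.97 and 0.98. VWA8 stood at 109 CPM in day 11 muscle and 7.81 and 13.8 with DMSO and CHIR.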

How the data were processed

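Per the labels' protocols the cells were dissociated, sorted as live by DAPI exclusion and made into 10x 3' v3 libraries. Per the submitters' processing notes, Cell Ranger 6.1.1 was used with GRCh38. The authors deposited whole-number UMI counts, without scaling, for cells with 1802 to 5999 genes. The peak list in the series is on hg19 and was not used here. The members and lists were chosen with earlier results of these data known.

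A cell's muscle or mesenchymal score was the mean over 10 or 8 markers of log2(1 + UMIs per 10000), cut by Otsu's method at 1.87 and 1.18 over the 3 libraries weighted equally. Endothelial-like cells needed 4 of 8 markers and endoderm-like cells 5 of 8, and these gates went first. UMIs were summed over a class and divided by its total. CPM have exact Poisson intervals, ratios exact conditional binomial (Clopper-Pearson) intervals, and 0.5 was added to both counts before a log2 ratio. Genes needed 20 UMIs over both libraries. No doublet caller was used in the main analysis. Scrublet in scanpy 1.11.5, run on the DMSO library, called 220 cells (5.48%), 74 of them double. TMM factors came from edgeR 4.0.16. The named genes were the 4 members, AXIN2, CTNNB1, up to 3 genes of each list with the largest ratio past 1.5-fold at 10 CPM or more, and the 5 most correlated genes (Pearson's r of log2 CPM) of each member at 20 CPM or more. The ratio and its interval were tested on simulated Poisson counts, the counting error that the interval assumes. The simulation held no variation between cells or libraries, so it says nothing about either.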

Additional observations from a re-analysis of the deposited data

How the results depend on the processing

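In muscle-like cells CHIR stayed above DMSO for LEF1 and TCF7 under all 12 alternatives that could move a ratio, with ratios of 5.45 to 6.97 and 3.03 to 3.88. With mitochondrial and ribosomal protein genes out of the totals, which moved the median gene from -0.02 to 0.16 (log2), LEF1 was at 6.97 and TCF7L2 at 1.78. Counting double cells as muscle gave TCF7L1 1.43. Dropping DMSO Scrublet doublets, shared barcodes or cells with a SHOX2 UMI left all 4 ratios within their intervals, and so did shifting the gates or gating on TNNT2 alone. With totals of genes of at least 100 kb only, an alternative added after seeing the data, TCF7L2 was at 1.39. Against day 11 that scaling moved the median gene from -0.67 to 1.03 for DMSO and from -0.77 to 0.76 for CHIR. It left 1 member higher and 1 lower with DMSO, where TCF7, too short to be in those totals, turned to 1.65. With CHIR it left 2 higher and 0 lower, and TCF7L2 turned to 1.04. TMM factors made 2 members higher in CHIR against day 11, and moved the median gene to -0.08 and -0.13. The share of higher genes among those past 1.5-fold was then 43.4% and 40.2% in place of 13.3% and 14.2%. In CHIR against DMSO, long-gene totals made it 30.8% in muscle-like, 41.2% in mesenchymal-like and 36.0% in all cells, in place of 43.8%, 58.2% and 49.3%. Leaving mitochondrial and ribosomal genes out made it 61.7% in all cells. Pathway counts in muscle-like cells were also read at 2-fold, where no share over all genes was taken, so nothing is concluded from them. Higher and lower genes numbered 2 and 0 for partners, 2 and 1 for repressors and 3 and 0 for the destruction complex. They numbered 1 and 5 for receptors, 7 and 2 for Wnt targets and 2 and 0 for SOX factors. No paired analysis was possible because each single-cell group has 1 library, and replicate numbers exist only for samples not used here. Depth limits TCF7, with 79 UMIs in DMSO muscle, and every endoderm-like and endothelial-like value at day 15.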

Other observations

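LEF1-AS1, a noncoding gene on chromosome 4 that overlaps the 5' end of LEF1 in the annotation, did not follow LEF1 at day 15. In muscle-like cells it had 146 UMIs at day 11 (3.35 CPM), 25 with DMSO (1.00) and 17 with CHIR (0.829), with a ratio of CHIR to DMSO of 0.827 (0.419 to 1.59). In mesenchymal-like cells the ratio was 0.629 (0.407 to 0.976), from 48 and 42 UMIs, beside the 10.6-fold higher LEF1. The counting of strand is not described in the labels or notes.

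The share of UMIs in genes of at least 100 kb was higher at day 11 in every class, from 11.0% to 19.8%, than with DMSO (4.56% to 6.08%) or CHIR (5.42% to 6.83%). Within each library muscle-like cells had the highest share of the 6 classes.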
